A study of Mus musculus with 4 samples.

Results

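The 39 genes described here encode proteins that build ribosomes in the nucleolus, the nuclear body where ribosomal RNA is made. The rule lists them by name and uses no measured value, but the list was made with earlier results of these data known. All 39 were among the 20171 genes of the deposited gene table, and all 39 passed the filter on low values of at least 1 UMI per 100,000 in at least 4 embryos. A UMI (unique molecular identifier) marks 1 captured RNA molecule, and every level below is the number of UMIs of a gene per 100,000 UMIs of the cell. The levels are therefore relative, and a change in the RNA content of a whole cell cannot be told apart from a change in all other genes.

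Single cells were isolated from oocytes, zygotes and preimplantation embryos of C57BL/6J females aged 6 to 8 weeks, superovulated with PMSG and hCG and mated with DBA/2NCrl males (the strain label reads DBA/2J x C57BL/6J). Cells of E14 Tg2A mouse embryonic stem cells (mESC) were the cultured line. Full-length cDNA was read on PacBio instruments, so that each read shows the exons and the 3′ end of its cDNA. Oocytes were taken 20 h after hCG, zygotes at 22 to 24 h, early 2-cell embryos (E2C) at 30 to 32 h, late 2-cell embryos (L2C) at 46 to 48 h, 4-cell embryos at 54 to 56 h, 8-cell embryos at 68 to 70 h and 16-cell embryos at 78 to 80 h. A replicate was 1 oocyte, 1 zygote or 1 embryo, as named by the cell names of 121 of 161 cells. By number these were 10 oocytes and 9 zygotes, then 5 embryos at E2C, 6 at L2C, 5 at 4-cell, 4 at 8-cell and 4 at 16-cell. The 22 32-cell, 13 blastocyst and 5 mESC cells name no embryo and are given as medians over cells with no test. Nothing in the sources says that embryos came from separate mothers, so the p-values measure the spread between embryos only.

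Cells held between 4985 and 389775 UMIs. Oocytes and zygotes were the deepest (at least 166731 UMIs each) and single blastomeres the shallowest, so low levels are less precise after the 2-cell stage. In the L2C embryo 1, with 1 cell and 17971 UMIs, a single UMI is worth 5.56 per 100,000. That embryo, 4-cell embryo 2 and 8-cell embryo 3 stood apart: their median correlation with embryos of their stage was 0.682, 0.732 and 0.858, and they held fewer genes than the rest. The 0.858 is low only beside the other 8-cell embryos (0.915 to 0.921), as kept embryos of other stages ranged down to 0.809 (L2C embryo 4). The counts of called genes, of genes without overlap from E2C to L2C, of highest stages and of later falls in stop-codon share were also made without the 3 embryos that stand apart.

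Ribosomal RNA is transcribed by RNA polymerase I, and the precursor is cut and chemically modified while ribosomal proteins attach to it. Box C/D and box H/ACA snoRNPs, particles of a small nucleolar RNA and a few core proteins, methylate the precursor or turn its uridines into pseudouridines. The small subunit processome assembles on the 5′ part of the precursor and yields the pre-40S particle, and a chain of assembly factors and helicases matures the pre-60S particle. Fully grown oocytes carry compact nucleoli with little rRNA synthesis, and functional nucleoli are rebuilt in the cleaving embryo.

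The sequences below are those around the 3′ ends of isoforms that lack the annotated stop codon. They are shown because these isoforms made up most of the UMIs assigned to isoforms for several of the genes in oocytes and zygotes. Each line has the 30 bases of the GENCODE M21 transcript (mm10) before the end in lower case and the 30 bases after it in CAPITALS.
Ddx18, end in exon 2 of 13: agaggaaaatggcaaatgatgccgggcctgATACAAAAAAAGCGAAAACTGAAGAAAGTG
Nop58, end in exon 13 of 15: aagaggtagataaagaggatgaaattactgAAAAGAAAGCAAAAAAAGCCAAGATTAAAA
Nop58, end in exon 14 of 15: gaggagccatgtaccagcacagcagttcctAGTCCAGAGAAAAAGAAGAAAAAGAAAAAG
Nop56, end at the end of exon 11 of 12: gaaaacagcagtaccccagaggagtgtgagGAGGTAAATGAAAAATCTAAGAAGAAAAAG
Gnl3, end at the end of exon 7 of 15: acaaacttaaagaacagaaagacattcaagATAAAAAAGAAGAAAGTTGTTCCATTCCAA
Npm1, end at the end of exon 5 of 11: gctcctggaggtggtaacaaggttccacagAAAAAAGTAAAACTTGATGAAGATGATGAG
Dkc1, end in exon 14 of 15: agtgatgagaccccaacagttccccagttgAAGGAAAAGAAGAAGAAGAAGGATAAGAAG
These 7 ends were chosen among the 12 of 20 readable ends with at least 50% A in the capitals. For contrast, 3 ends with under 50% A are given, 1 of them the most abundant end of Npm1.
Npm1, end at the end of exon 8 of 11: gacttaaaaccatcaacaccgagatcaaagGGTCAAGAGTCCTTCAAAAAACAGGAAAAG
Nop58, end in exon 4 of 15: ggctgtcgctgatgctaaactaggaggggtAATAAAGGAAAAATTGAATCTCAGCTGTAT
Utp18, end in exon 2 of 14: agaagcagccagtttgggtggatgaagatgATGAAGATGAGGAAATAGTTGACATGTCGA
The capitals hold 50% to 70% A in the first 7, 46.7% in those of Npm1 and Nop58 and 40% in that of Utp18. The isoform counts that belong to these ends follow after the gene levels.

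The summed level of the 39 genes was lowest in oocytes, zygotes and E2C and higher in L2C, after the interval of the major wave of zygotic transcription, and 33 of the 39 genes rose between E2C and L2C. Their summed level ranged from 176.6 to 257.2 UMIs per 100,000 in the 10 oocytes, with a median of 219.0. In zygotes it ranged from 186.8 to 300.4 around 251.6. In the 5 E2C embryos it ranged from 214.2 to 251.8 around 238.1. The first 3 stages thus overlapped throughout. In the 6 L2C embryos the sum ranged from 695.6 to 953.4 around 786.1, and every L2C embryo lay above every E2C embryo. The medians were 1007 in 4-cell, 1180 in 8-cell and 1219 in 16-cell embryos, and the ranges of these 3 stages overlapped. Over cells with no embryo name the medians were 1049 at 32-cell, 914.2 in blastocysts and 1119 in mESC.

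One gene, Npm1, held 47.8% to 70.0% of this sum, as counted in molecules, in each oocyte, zygote and E2C embryo. Without Npm1 the sum ranged from 93.8 to 101.8 in E2C embryos and from 595.4 to 804.1 in L2C embryos, and its median was 709.8 in 16-cell embryos. The L2C median of these 38 genes was 654.4, and the range in 16-cell embryos (516.4 to 794.2) overlapped that in L2C.

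**Figure D1:**
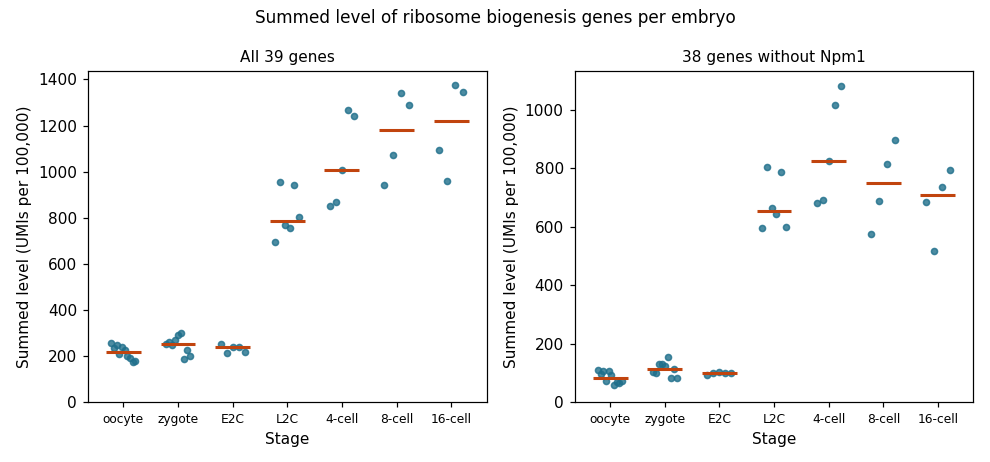
Summed level in UMIs per 100,000 (y axis) of all 39 genes (left) and of the 38 genes without Npm1 (right) in each oocyte, zygote or embryo (points) by stage, with the median as a bar. All 6 L2C embryos lie above all E2C embryos in both panels, and the right panel has its highest median at the 4-cell stage.

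Levels were compared between neighbouring stages with limma on log2(UMIs per 100,000 + 1), in 1 fit over 11682 genes. A gene was called changed when its log2 fold change passed 1 in size at an unadjusted p under 0.01. Folds on this scale understate the change of low genes. From E2C to L2C 33 of the 39 genes rose and 0 fell, against 25.6% of all tested genes that rose. All 33 also passed a Benjamini-Hochberg adjusted p of 0.05 over all genes, with 8.7e-16 for Nhp2 as the smallest and 0.00526 for Gar1 as the largest value. The median log2 fold change was 2.25 over the 39 genes and 0.027 over all tested genes. In 20 of the 39 genes every L2C embryo was above every E2C embryo, which 13.0% of tested genes showed, and without the 3 embryos that stand apart this was 29 of 39 and 20.0% of tested genes. The count of rises was 33 also without the 3 embryos that stand apart, and 14 when every cell was thinned to 5000 UMIs, which leaves most of these genes with few UMIs. The 25.6% of all tested genes is for cells at full depth, so the 14 cannot be set against it.

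**Figure D2:**
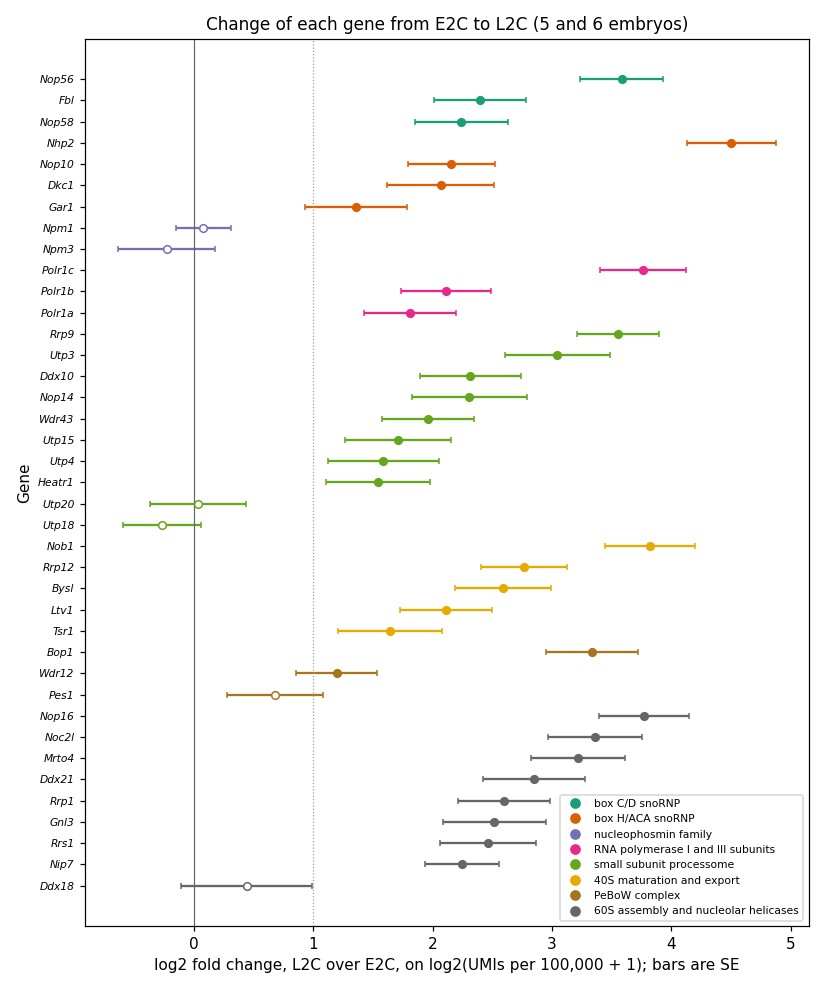
The log2 fold change of each gene from E2C to L2C (x axis, on log2 of UMIs per 100,000 + 1, with SE as bars), grouped by the role of the protein (colours). Filled points are the 33 called genes, open points the 6 that were not called, and the dotted line marks a log2 fold change of 1; Nhp2 stands highest at 4.50.

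The box C/D core proteins bind the guide RNAs that direct 2′-O-methylation, with Fbl (fibrillarin) as the methyltransferase and Nop56 and Nop58 as the scaffold. All 3 rose from E2C to L2C. Nop56 stood at 1.85, 1.76, 1.02, 2.00 and 2.70 UMIs per 100,000 in the 5 E2C embryos and at 19.6 to 50.1 around a median of 35.3 in the 6 L2C embryos. The groups did not overlap, and the log2 fold change was 3.58 (SE 0.35). Fbl stood at 0.483 to 4.31 in E2C and at 11.1 to 17.0 in L2C, with a log2 fold change of 2.40 (SE 0.39). Nop58 stood at 0.543 to 1.42 and at 4.10 to 16.2, with 2.24 (SE 0.39). Nop56 remained above its E2C range in all later embryos, and its highest value was 89.8 in 4-cell embryo 4.

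The box H/ACA core consists of the pseudouridine synthase Dkc1 (dyskerin) with Nop10, Nhp2 and Gar1, a set that telomerase RNA uses as well. All 4 rose, and Nhp2 had the largest change of the 39 genes. Nhp2 stood at 3.49, 2.47, 1.97, 5.58 and 2.70 in the E2C embryos and between 77.9 and 108 around 92.1 in the L2C embryos. Its mean rose 28.3-fold from 3.24 to 91.9, and its log2 fold change was 4.50 (SE 0.37). It then stayed between 94.2 and 191 in every embryo up to the 16-cell stage, and its median was 131.8 in mESC. Nop10 began higher, at 8.94 to 17.8 in E2C, and reached 46.3 to 89.0 in L2C without overlap. Dkc1 ranged from 1.20 to 6.87 in E2C and from 8.19 to 35.3 in L2C. Gar1 had the smallest rise of the 4, at 1.36 (SE 0.43), and its groups overlapped.

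RNA polymerase I was represented by its 2 largest subunits, Polr1a and Polr1b, and by Polr1c, which RNA polymerase III shares. Polr1c stood at 3.60, 1.24, 2.11, 2.00 and 1.63 in E2C and at 31.8 to 59.3 around 39.4 in L2C, a log2 fold change of 3.76 (SE 0.36). Polr1a stood at 0 in 3 of 5 E2C embryos and at 2.35 to 5.56 in L2C, with 1.81 (SE 0.38). Polr1b stood at 1.85, 0, 0.545, 0.483 and 0 in E2C and at 0 to 14.8 in L2C, with 2.11 (SE 0.38). Polr1a and Polr1c did not overlap between the stages, and Polr1b overlapped through L2C embryo 1 alone, where it was at 0.

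Of 10 small subunit processome genes 8 rose. The largest changes were those of Rrp9, a U3 snoRNP protein, at 3.55 (SE 0.34), and Utp3 (Sas10) at 3.05 (SE 0.44). Rrp9 stood at 0.651, 0.53, 2.04, 1.52 and 3.78 in E2C and at 17.0 to 34.9 around 26.3 in L2C. Wdr43, Ddx10, Nop14, Utp15, Utp4 and Heatr1 also rose, by 1.54 (Heatr1) to 2.31 (Ddx10) on the log2 scale. The other 2, Utp18 and Utp20, did not pass the test. Utp18 was already at 9.20 to 13.4 in E2C and was at 5.33 to 15.6 in L2C. Utp20 was at 1.63 to 4.42 in E2C and at 0 to 5.97 in L2C, and was the only one of the 39 with its highest stage mean in oocytes.

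All 5 genes of pre-40S maturation and export rose. Nob1, the endonuclease that makes the final cut of 18S rRNA, stood at 2.29, 0, 0.545, 0.483 and 3.78 in E2C and at 11.1 to 34.1 around 27.1 in L2C, with a log2 fold change of 3.82 (SE 0.38). Rrp12, an export factor, was at 0 in 4 of 5 E2C embryos and at 4.14 to 11.1 in L2C. Bysl, Ltv1 and Tsr1 rose by 2.59, 2.11 and 1.64. Tsr1 was the only one of the 5 whose embryos overlapped between E2C and L2C.

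In the PeBoW complex, which acts on the 60S precursor, Bop1 and Wdr12 rose and Pes1 did not pass the test. Bop1 was at 0 in 4 of 5 E2C embryos and at 1.45 in the fifth, and ranged from 8.48 to 27.8 in L2C, with a log2 fold change of 3.33 (SE 0.38). Wdr12 had the smallest called rise of the 39, at 1.20 (SE 0.34). Pes1 stood at 2.44 to 4.62 in E2C and at 3.96 to 16.7 in L2C, a log2 fold change of 0.68 (SE 0.40, limma adjusted p = 0.139).

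Of 9 further 60S assembly factors and nucleolar helicases 8 rose, namely Nop16 (3.77), Noc2l (3.36), Mrto4 (3.22), Ddx21 (2.85), Rrp1 (2.60), Gnl3 (2.52), Rrs1 (2.46) and Nip7 (2.25). Nop16 never passed 0.651 in an E2C embryo and ranged from 12 to 26.0 around 17.7 in L2C. Gnl3 (nucleostemin), a GTP-binding protein of the nucleolus, ranged from 1.95 to 4.87 in E2C and from 12.1 to 35.2 in L2C. The RNA helicase Ddx18 was the exception, at 2.65 to 5.99 in E2C and 0 to 10.5 in L2C.

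The nucleophosmins, histone-binding chaperones that shape the nucleolus, followed another course. Npm1 was the most abundant of the 39 from the oocyte on, with 104 to 148 in oocytes, 102 to 167 in zygotes, 158, 114, 136, 139 and 118 in E2C and 100 to 201 around 130 in L2C. These 4 stages overlapped, and the log2 fold change from E2C to L2C was 0.08 (SE 0.23), or -0.29 under TMM scaling (a factor per embryo from the bulk of its genes). Npm1 rose instead from 4-cell (168, 179, 183, 251 and 161) to 8-cell embryos (366, 384, 526 and 393), by 1.04 (SE 0.25, limma adjusted p = 0.00183) and with no overlap. It was the only one of the 39 genes that rose there, where 4.47% of tested genes rose. In 16-cell embryos it stood at 410, 445, 641 and 550.

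Npm3 was close to absent for most of the course. It was at 0 in all 6 L2C embryos and in 4 of 5 4-cell embryos, and at 0, 0.856, 0 and 0.406 in the 8-cell embryos. In 16-cell embryos 1 and 2 it stood at 0.520 and 1.53, and in embryos 3 and 4 at 12.7 and 16.9. This was called a rise of 1.31 (SE 0.41), with a limma adjusted p of 0.0993, and 1.90% of tested genes rose between these stages. The call rests on 16-cell embryos 3 and 4: without embryo 3 the log2 fold change was 0.85 and without embryo 4 it was 0.70, and neither was called. The median over 32-cell cells and over blastocyst cells was 0, and that over mESC was 4.30.

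**Figure D3:**
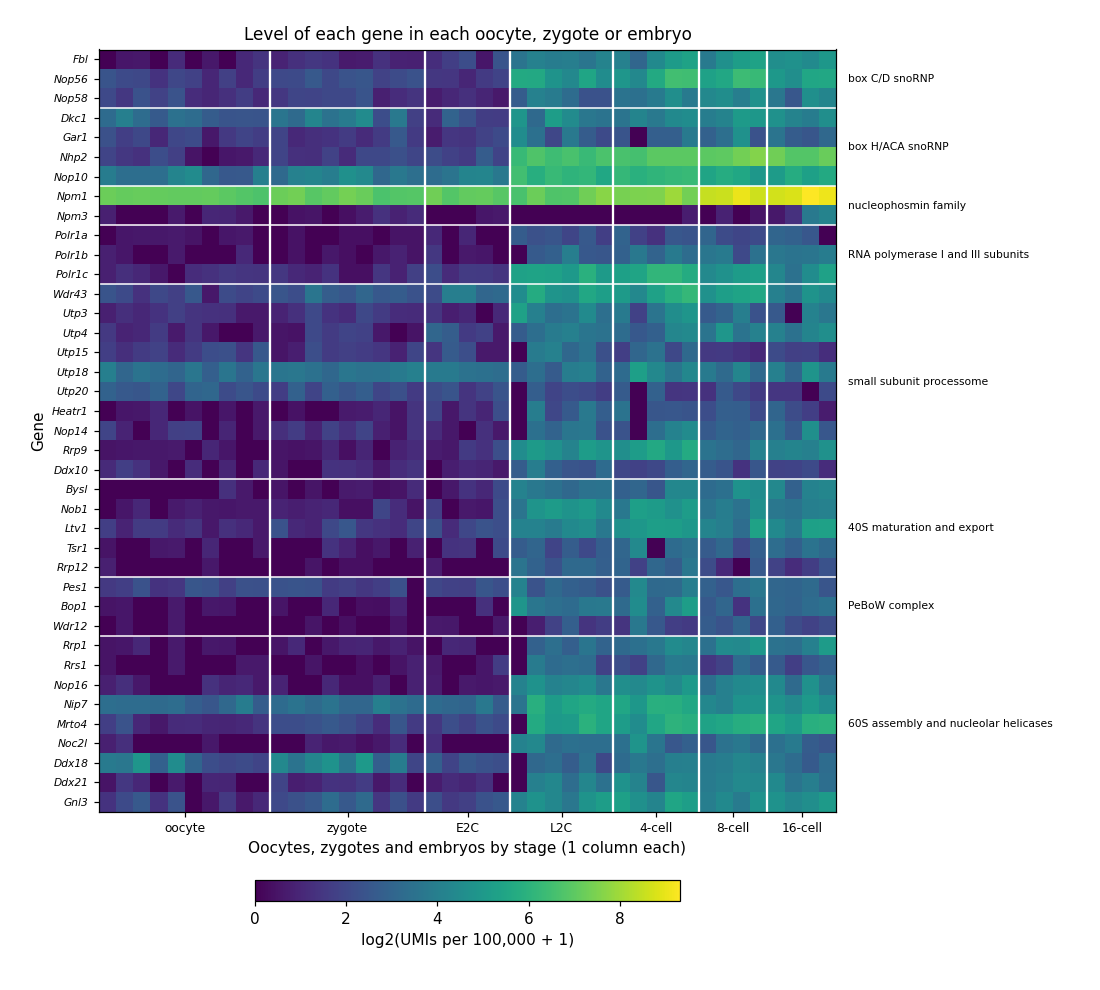
Level of each of the 39 genes (rows, grouped by role) in each oocyte, zygote or embryo (columns, grouped by stage), as log2 of UMIs per 100,000 + 1 (colour). Most rows change between E2C and L2C, Npm1 is high in every column, and L2C embryo 1 shows single genes at 0 among high ones.

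Before E2C few of the 39 genes changed. From oocyte to zygote 0 of 39 were called, where 3.24% of tested genes were called in either direction. With limma 10 of 39 had an unadjusted p under 0.05, and edgeR and DESeq2 on the recovered UMIs called 2 each. No share of all genes at these settings stands beside these counts, so they are not read as many or few. The largest difference was that of Gnl3, at 0.99 (SE 0.23, limma adjusted p = 0.00158). Gnl3 stood between 0 and 5.14 around 1.56 in oocytes and between 1.80 and 8.76 around 3.97 in zygotes. From zygote to E2C Dkc1 and Ddx18 fell, where 2.75% of tested genes fell. Dkc1 ranged from 2.43 to 21.4 around 11.4 in zygotes and stood at 1.20, 6.87, 4.07, 2.20 and 2.15 in E2C, a fall by 1.49 (SE 0.33, limma adjusted p = 7.6e-04). Ddx18 ranged from 2.84 to 31.9 around 14.0 in zygotes and stood at 5.99, 2.65, 5.02, 4.07 and 3.78 in E2C, a fall by 1.47 (SE 0.40, limma adjusted p = 0.00742). Both pairs of groups overlapped. Under TMM scaling the split of all called genes in this interval moved from 528 higher and 321 lower to 300 higher and 548 lower, and both falls were still called.

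After L2C fewer of the 39 genes were called. From L2C to 4-cell 0 of 39 were called, where 6.69% of tested genes were. With limma 3 of 39 had an unadjusted p under 0.05, and edgeR and DESeq2 called 0, again with no share of all genes beside these counts. From 4-cell to 8-cell embryos 6 genes fell, where 10.5% of tested genes fell, so this share was near that of all genes. Rrp9 fell most, from 23.7, 34.7, 48.0, 30.1 and 51.3 to 10.8, 9.04, 7.43 and 16.1, which did not overlap (log2 fold change -1.65, SE 0.37). Nip7 fell from 29.6 to 57.3 down to 15.9 to 26.4, also without overlap. Utp3, Bop1, Rrp12 and Rrs1 were the other 4, with log2 fold changes of -1.47, -1.40, -1.31 and -1.22 and overlapping groups. Under TMM scaling 2 of these 7 changes remained, those of Npm1 and Rrp9, and the split of all called genes moved from 522 higher and 1227 lower to 783 higher and 709 lower. From 8-cell to 16-cell Wdr43 fell by 1.06 (SE 0.39), with a limma adjusted p of 0.202, and 1.46% of tested genes fell.

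The highest stage mean was at the 4-cell stage in 14 of the 39 genes (35.9%, against 15.4% of tested genes), at the 8-cell stage in 11 (28.2%, against 9.60%), at L2C in 6 (15.4%, against 19.9%) and at the 16-cell stage in 6 (15.4%, against 11.4%). It was at E2C in 0 of the 39, whereas 23.8% of tested genes had their highest mean there. Without the 3 embryos that stand apart it was at the 4-cell stage in 19, at the 8-cell stage in 7 and at L2C in 5, so the split between the 4-cell and the 8-cell stage depends on them. No test was made of these orders. In mESC the median of Nop56 was 74.8 and that of Rrp9 was 39.6, against 33.9 and 7.54 in blastocyst cells.

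A wider list of 120 other ribosome biogenesis genes, of which 115 were tested, moved in the same intervals. Between E2C and L2C 91 rose and 1 fell, with a median log2 fold change of 1.99, where 25.6% of all tested genes rose. The largest rises were those of Utp23 (from a mean of 0.395 to 35.7, log2 fold change 4.65) and Wdr74 (from 0.841 to 37.8, 4.33), which act in pre-18S processing and in 60S assembly. The gene that fell was Riok1, a kinase of late pre-40S maturation, from 36.7 to 7.44. From 4-cell to 8-cell 20 fell and 1 rose, where 10.5% of all tested genes fell and 4.47% rose. Nucleolin, Ncl, an abundant nucleolar protein, rose from oocyte to zygote (10.5 to 30.2), fell to E2C (7.83) and rose again to L2C (25.6). These are gene levels. The study reports that short Ncl isoforms lacking the stop codon were abundant up to the zygote stage. It reports that the complete isoform increased once zygotic transcription had begun. Among 7 genes of the Myc family of transcription factors, which act on many ribosome biogenesis genes, Myc rose from 0 in all 5 E2C embryos to 0 to 5.56 in L2C, where 5.56 is 1 UMI in the shallow embryo 1, and its partner Max fell from 9.74 to 3.06.

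Myc and Max bind the E-box CACGTG, and this motif was searched on both strands (it reads the same on each) in RefSeq promoters of GRCm38.p6 from 250 bases before to 50 after the start. A promoter was matched for 34 of the 39 genes, all but Fbl, Npm1, Bop1, Rrp12 and Rrs1. It was found in 7 of the 34 (20.6%), in 4 of the 29 that rose from E2C to L2C (Ltv1, Tsr1, Utp4 and Wdr43) and in 3 of the 5 that did not (Pes1, Utp18 and Utp20). The motif was in 8.09% of all promoters, in 14.5% of those of all genes that rose and in 10.9% of those of tested genes that did not. The share among the risen genes here (13.8%) was thus near that of all risen genes. The promoters of Nhp2, the gene with the largest rise, and of Ltv1 are shown as one without and one with the motif, with the motif in capitals and the start site 50 bases before the end of each line.
Nhp2, chr11:51619523-51619822, plus strand: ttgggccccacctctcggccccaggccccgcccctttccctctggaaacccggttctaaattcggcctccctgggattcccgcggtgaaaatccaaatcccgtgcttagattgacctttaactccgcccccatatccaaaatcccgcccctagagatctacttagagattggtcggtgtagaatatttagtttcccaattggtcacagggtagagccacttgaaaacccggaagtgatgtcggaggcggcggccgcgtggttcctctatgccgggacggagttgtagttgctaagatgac
Ltv1, chr10:13193088-13193387, minus strand: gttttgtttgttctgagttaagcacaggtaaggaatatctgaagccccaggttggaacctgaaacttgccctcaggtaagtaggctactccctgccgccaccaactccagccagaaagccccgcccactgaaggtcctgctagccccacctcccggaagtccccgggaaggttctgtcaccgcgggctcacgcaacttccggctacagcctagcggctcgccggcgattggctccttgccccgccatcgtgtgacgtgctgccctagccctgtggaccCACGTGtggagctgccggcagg
The motif of Ltv1 begins 28 bases after the start site, and a match in these letters is a description of the sequence only. The most abundant isoforms of Nhp2 and Ltv1 in these data start at 51619561 and 13193247, inside the windows and upstream of the start sites used. Sequence before the windows was not searched.

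The isoform table held 479 isoforms of the 39 genes, of which 235 passed the filter and were tested for level, and 452 of the 479 reached an annotated stop codon of the gene. The other 27, from 14 genes, did not, and they were unevenly spread over the stages. Of the members' UMIs in this table, 8.96% in oocytes and 14.0% in zygotes belonged to isoforms without the stop codon. The share was 0.735% in E2C and at most 0.349% later. Per oocyte it ranged from 2.36% to 19.4% around 5.96%, per zygote from 3.92% to 26.2% around 12.2% and per E2C embryo from 0.270% to 1.35%. Over all genes the share was 3.51% in oocytes and 4.78% in zygotes, and E2C embryos had 2.96%. The members' share depends strongly on 1 gene, Ddx18. It held 186 of their 316 UMIs without the stop codon in oocytes and 334 of 656 in zygotes.

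Ddx18 (chromosome 1, 121553835 to 121567989, minus strand) carried most of these molecules. Of its isoform UMIs, 186 of 193 in oocytes and 334 of 344 in zygotes lacked the stop codon, against 5 of 25 in E2C, 2 of 36 in L2C and 0 of 60 in 4-cell embryos. The share was 81.8% to 100% in the 9 oocytes and 89.5% to 100% in the 9 zygotes with at least 5 UMIs, and among embryos from E2C on with as many UMIs it was at most 40%. Nearly all were 1 isoform of 2 exons and 501 bases with 493 UMIs in oocytes and zygotes. It starts at the annotated 5′ end and stops in exon 2 at position 121565881, after 18.8% of the coding sequence, where 8 of the next 10 bases are A. The helicase domains of Ddx18 lie in the part it lacks, as 535 codons follow the end.

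Nop58, Nop56, Gnl3 and Npm1 showed the same contrast at lower counts. The isoform table held only part of the UMIs of Nop58, Nop56 and Gnl3, and the shares below refer to that part. For Nop58 it was 65.2% in oocytes and 67.2% in zygotes. For Nop56 it was 62.7% and 70.0%, and for Gnl3 53.8% and 54.1%. The share of UMIs without the stop codon was 73.3% (of 30 UMIs) in oocytes and 76.9% (of 39) in zygotes for Nop58, and 0% (of 40) in L2C. For Nop56 it was 50% (of 32) and 69.8% (of 63), and 0% of 168 UMIs in L2C. For Gnl3 it was 23.8% (of 21) and 63.3% (of 60), and 0% of 122 in L2C. Npm1 UMIs were mostly in isoforms with the stop codon. Those without it made up 2.81% of 2420 UMIs in oocytes, 5.69% of 2986 in zygotes and 0% of 785 in L2C. The 6 Npm1 isoforms without the stop codon end in or after exons 3 to 9 of 11. Nhp2, Nop10, Nip7 and Mrto4 had 0 such UMIs in oocytes and zygotes, out of 57, 268, 218 and 64 UMIs in zygotes.

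**Figure D4:**
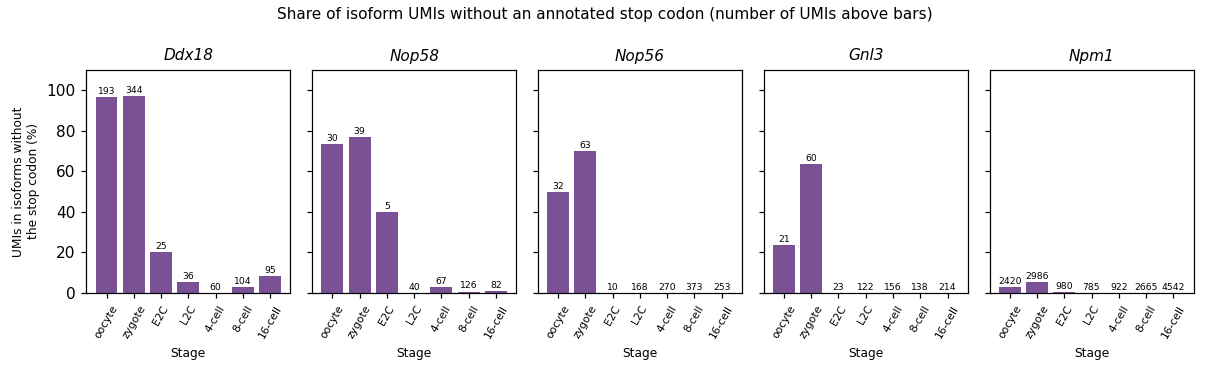
Percentage of UMIs in isoforms without the annotated stop codon (y axis) by stage for 5 genes, pooled over embryos, with the number of UMIs above each bar. The bars of Ddx18, Nop58, Nop56 and Gnl3 are high in oocytes and zygotes and at most 8.42% from L2C on, while the E2C bars of Ddx18 and Nop58 rest on 25 and 5 UMIs and Npm1 is at most 5.69%.

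The shares were tested per embryo, for genes with at least 5 UMIs in at least 3 embryos of each group, with limma over all such genes and a call at an adjusted p under 0.05. From zygote to E2C 6 of the 39 genes could be tested and 1 was called, where 4.32% of all tested genes fell. This was Ddx18, from a mean of 96.9% (SD 3.51, n = 9) to 20.7% (SD 20.0, n = 3), with a limma adjusted p of 4.9e-04. The call was lost without E2C embryo 3, 4 or 5, when fewer than 3 embryos remained, and with a minimum of 10 UMIs. Between E2C and L2C 0 of 6 were called by limma and 0 had an unadjusted p under 0.05, where 3.11% of all tested genes were called. A comparison added after seeing the data set the 19 oocytes and zygotes against the 19 embryos from L2C to 16-cell. For each gene it used only those with at least 5 UMIs. For Nop56 these were 0 oocytes and 8 zygotes, for Nop58 2 and 3, and for Gnl3 1 and 7. In this comparison 5 of 14 tested members had a lower share later, where 13.1% of all tested genes did. They were Ddx18 (96.4% to 3.24%), Nop58 (84.7% to 1.06%), Nop56 (68.8% to 0%), Gnl3 (60.8% to 0%) and Npm1 (4.00% to 0.0110%), with limma adjusted p from 1.8e-20 (Ddx18) to 6.9e-08 (Npm1). The same 5 were called without the 3 embryos that stand apart. When the share was that of UMIs ending over 200 bases before every annotated end, only Ddx18 and Npm1 of the 5 were called, beside Nhp2 and Utp18, which rose.

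Most but not all readable ends without a stop codon lay in front of A-rich sequence. Of the 27 isoforms, 13 ended inside the coding part of an exon and 6 more ended 1 or 2 bases past an exon's last base, which was read as the exon's end. For 20 of them the 30 transcript bases past the end could be read, and 12 of the 20 (60.0%) held at least 50% A, against 37.4% of such ends over all genes. The other 8 ranged down to 13.3% A, in 1 of the Utp18 ends. Weighted by UMIs of oocytes and zygotes the shares were 80.6% for these genes and 48.5% for all genes, and without Ddx18, whose 1 end carries 2 isoforms, the share was 57.2%. The median share of A was 53.3% past the end and 33.3% before it, while over all genes it was 43.3% and 36.7%. After the end of the Nop58 isoform in exon 13, 26 of the remaining 80 codons are AAA or AAG, and after the Dkc1 end in exon 14 they are 17 of 45. The nearest annotated small nucleolar RNA was Gm24916, 47 bases from the Gnl3 end, and Snord57, 204 bases from the Nop56 end in exon 11. Priming of the reverse transcription inside such A stretches was not tested, and it cannot be told apart here from RNA that ends there.

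The share differed between sequencing runs, as the barcode list of the study gives them, and between the oocyte tables. Runs 1, 2 and 3 held 5, 1 and 4 oocytes and 4, 2 and 3 zygotes. In oocytes it was 12.6%, 6.82% and 3.51% of the members' UMIs in runs 1, 2 and 3, and in zygotes 16.1%, 18.3% and 6.52%. The share of Ddx18 was between 93.8% and 100% in each run in both stages. A second deposited isoform table, of 4 intact oocytes, 6 samples of oocytes split in 2 and 6 of oocytes split in 4, held 37 of the genes. There 25 of 6396 member UMIs (0.391%) lacked the stop codon, against 2.98% over all genes. Ddx18 was nearly absent from it, at a median of 0.400 in the intact oocytes against 6.64 in the oocytes above, and 8 of its 17 UMIs lacked the stop codon. Dkc1 had 477 UMIs in that table, 0 without the stop codon, and a median of 13.1 in intact oocytes. The tables were normalized separately, and the cause of the difference was not tested.

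From zygote to E2C 5 of the 235 tested isoforms fell and 0 rose (2.13%, against 5.18% of all isoforms called), and all 5 lacked the stop codon. The Ddx18 isoform of exons 1 and 2 fell from a mean of 19.6 to 0.810 (log2 fold change -3.46, SE 0.48, limma adjusted p = 4.1e-07). The others were 1 isoform each of Nop56 and Gnl3 and 2 of Npm1, and none was of Dkc1. Counting only isoforms with the stop codon, on the scale of the isoform table, Ddx18 ranged from 0 to 1.27 around 0.747 in zygotes and from 0 to 5.93 around 4.19 in E2C. Its change from zygote to E2C then turned to a rise of 1.43 (SE 0.34, limma adjusted p = 0.00305). Dkc1 turned to 0.77 and was not called, but the isoform table held only 7.38% of its UMIs in zygotes and 28.6% in E2C, so its fall cannot be traced to an isoform here. From E2C to L2C 29 of the 33 rises remained, and those of Gar1, Polr1a, Polr1b and Wdr12 did not. Gar1, Polr1b and Wdr12 had 0 isoforms without the stop codon, so the filter on stop codons removed none of theirs. The isoform table held 65.9% (Gar1), 10.0% (Polr1b), 46.7% (Wdr12) and 18.2% (Polr1a) of their UMIs in L2C. Why these rises were lost was not tested.

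**Figure D5:**
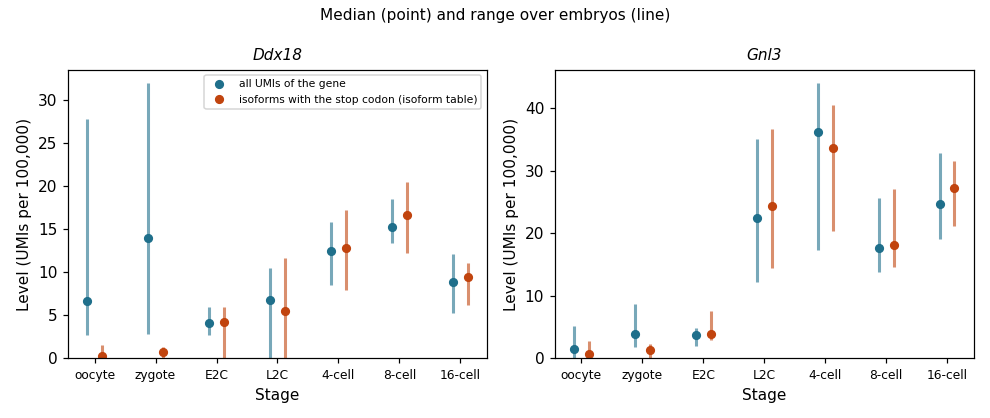
Level of Ddx18 (left) and Gnl3 (right) in UMIs per 100,000 by stage, as the median (point) and range (line) over embryos, from all UMIs of the gene table and from isoforms with the stop codon in the isoform table, which is scaled separately. In oocytes and zygotes the isoforms of Ddx18 with the stop codon lie far below the total, with medians of 0.306 and 0.747 against 6.64 and 14.0, and from E2C on both medians are close.

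Between E2C and L2C 53 member isoforms rose and 2 fell, in 26 genes. These were 23.4% of the 235 tested, where 26.0% of all isoforms were called, a share that pools rises and falls. The median log2 fold change was 0.56 over the member isoforms and 0 over all isoforms. The rise of Nhp2 was carried by 2 isoforms with means of 2.10 and 2.06 in E2C and 53.9 and 49.4 in L2C. That of Polr1c was carried by 1, from 1.80 to 36.6. Both falls were in Npm1, from 9.88 to 2.04 and from 9.43 to 2.95, while another Npm1 isoform rose from 24.3 to 63.7 at a steady gene level. A switch in isoform shares was tested in genes with at least 2 isoforms that were each present in at least 3 embryos of both stages. Isoforms nearly absent at 1 of the stages were therefore not tested. The test called 0 of 6 members from E2C to L2C, where 4.79% of genes were called, and 0 of 9 from zygote to E2C, where 0.253% were. Ddx18 was among these 9. Its isoform of exons 1 and 2 went from a mean share of 92.5% to 32.4%, with a limma adjusted p of 0.131 for the gene. For Npm1 the adjusted p from E2C to L2C was 0.0257 in limma, above the threshold of 0.01 for a gene, so it was not called. Of the tested members 1 (E2C to L2C) and 2 (zygote to E2C) had an unadjusted p under 0.05, with no share of all genes beside these counts. This test recovered 40.8% to 54.4% of simulated shifts of at least 3 times, so smaller shifts were mostly not detectable at this depth.

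The other intervals held fewer isoform calls: 1 from oocyte to zygote (1.48% of all isoforms), 16 from L2C to 4-cell (4.29%), 26 from 4-cell to 8-cell (7.93%) and 4 from 8-cell to 16-cell (1.97%). The single change from oocyte to zygote was the Gnl3 isoform without the stop codon, which rose from 0.336 to 2.35. Of the 12 rises from 4-cell to 8-cell 11 were isoforms of Npm1, and Bop1 had the largest fall, from 8.72 to 1.07.

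Of 8 markers of cumulus and granulosa cells 5 were in the table, and their sum ranged from 4.42 to 9.81 UMIs per 100,000 in oocytes and from 1.09 to 4.55 in E2C, and was 0 in L2C, where all 5 were at 0. Cyp19a1 (aromatase), the only one tested, made up most of it and fell from E2C to L2C, from a mean of 2.89 to 0 in all 6 embryos, the interval in which the 33 genes rose. Of 6 2-cell markers 4 rose from zygote to E2C. From 4-cell to 8-cell, where Npm1 rose and 6 of the 39 genes fell, Krt8 and Krt18 (trophectoderm) and Pou5f1 and Klf4 (pluripotency) rose. Markers of the trophectoderm (2 of 6, Cdx2 and Gata3) and pluripotency genes (2 of 5 tested, Nanog and Zfp42) rose from 8-cell to 16-cell embryos, where 1 of the 39 genes rose. Their part in the results was not tested.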

How the data were processed

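Single-cell full-length cDNA of mouse oocytes and embryos was made in 10x gel beads, amplified and sequenced as concatenated molecules on PacBio instruments. The authors processed the reads with SMRT-Link and scISA-Tools, aligned them to mm10 with minimap2, collapsed isoforms with cDNA_Cupcake, used SQANTI3 for classification and kept isoforms found in at least 5 cells. The authors scaled the deposited gene and isoform tables to UMIs per 100,000 UMIs of a cell, a CPM on a base of 100,000, before isoforms seen in few cells were dropped, so the tables differ in scale. The second oocyte isoform table was deposited as raw UMI counts. Columns of this deposited scale were entered as CPM or as a score, with the same values. In both scaled tables all values (100%) came out as whole UMI counts within a tolerance of 0.1 after division by the value of 1 UMI, and these recovered counts of the deposited tables were used for depth, isoform shares and the count tests. No deposited fold change or p-value column was used, and 0 columns of samples were left unmapped.

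The mean over all cells of each embryo was taken, and its log2(value + 1) was fitted with limma 3.58.1 (trend, array weights, R 4.3.3) over 7 stages. Genes and isoforms needed at least 1 UMI per 100,000 in at least 4 embryos. A feature was called at a log2 fold change past 1 with a two-sided unadjusted p under 0.01, as in the study's methods, and Benjamini-Hochberg adjusted p-values run over all tested features. Shares of isoforms and of UMIs without a stop codon (GENCODE M21) were arcsine square root transformed and tested with limma, with a value per embryo. Alternatives were unweighted limma, pseudocounts of 0.5 and 5, no filter, TMM, edgeR 4.0.16 and DESeq2 1.42.0 on recovered counts, thinned cells and single embryos left out. Added after seeing the data were the fits without the 3 embryos that stand apart, with isoforms that hold a stop codon only, and the comparison of oocytes and zygotes with later embryos. On simulated counts the gene test recovered 98% (zygote to E2C) and 95% (E2C to L2C) of 200 genes changed 4-fold, and called 0.204% and 1.07% of unchanged genes. The tables were read with Python 3.11.15.

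All 39 genes are accounted for by role, and values are given for those called and for the largest changes. The genes and lists were chosen with earlier results of these data known. Sequencing runs were taken from the barcode list in the study's supplement and are known here for oocytes and zygotes only, so run and stage cannot be told apart for the later stages.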

Additional observations from a re-analysis of the deposited data

Results flagged for a closer look

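In 5 of 112 groups of 4 to 10 embryos with a mean level of at least 10, 1 embryo lay far from the rest of its stage by Dixon's criterion, and chance gives about 1 in 20. In 4-cell embryo 4 Nop58 stood at 23.5 UMIs per 100,000 with the nearest embryo at 13.1, and Npm1 at 251 with the nearest at 183. Polr1c stood at 59.3 in L2C embryo 5, with the nearest at 41.4. Bop1 stood at 27.8 in L2C embryo 1, the shallow embryo of 1 cell, with the nearest at 12.7. Noc2l stood at 27.4 in 4-cell embryo 2, another of the embryos that stand apart, with the nearest at 11.3. Their causes were not tested.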

How the results depend on the processing

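No paired analysis was possible because the embryo numbers name different embryos in each stage. Of 826 recomputed values of single genes 707 kept direction and call, 103 lost the call and 16 changed direction. The cause was not tested where none is named. From E2C to L2C the 33 rises became 14 with cells thinned to 5000 UMIs (fewer UMIs) and 32 to 33 without single E2C embryos, and 25 of them were called with a pseudocount of 5. From oocyte to zygote the 0 calls became 1 (unweighted limma, TMM) or 2 (pseudocount 0.5, edgeR, DESeq2). From zygote to E2C the 2 falls became 4 calls with a pseudocount of 0.5, 1 with a pseudocount of 5 or no filter and 2 to 3 without single E2C embryos. From L2C to 4-cell there was 1 call with unweighted limma, without the 3 embryos that stand apart or with stop-holding isoforms only, 2 when thinned and 0 to 2 without single 4-cell embryos. From 4-cell to 8-cell the 7 calls became 2 (TMM, edgeR), 3 (DESeq2, thinned) and 2 to 9 without single embryos, with 4 without 4-cell embryo 4 and 2 without 4-cell embryo 5. Npm1 was then at 0.97 without 4-cell embryo 5 and at 0.99 without 8-cell embryo 3, just under the line. From 8-cell to 16-cell the 2 calls became 1 (unweighted, pseudocount 0.5, no filter, TMM, thinned, cells under 10000 UMIs or the 3 embryos left out), 0 (pseudocount 5, edgeR, DESeq2, stop-holding isoforms, an adjusted p under 0.05) and 1 to 2 without single embryos. TMM moved the median log2 fold change of all genes from 0.027 to -0.110 from E2C to L2C and from -0.159 to 0 from 4-cell to 8-cell.

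Isoform calls became 3 (oocyte to zygote) and 9 each (zygote to E2C, 8-cell to 16-cell) with a pseudocount of 0.5, and 9, 17 and 2 in the last 3 intervals at an adjusted p under 0.05. They ran from 5 to 6 (zygote to E2C) and 51 to 56 (E2C to L2C) without single E2C embryos, from 9 to 22 (L2C to 4-cell) without single 4-cell embryos, and from 16 to 34 and 4 to 9 in the last 2 intervals without single embryos of either stage. The switch test called 0 without each single E2C embryo and 1 on untransformed shares from E2C to L2C. For the stop codon, the zygote to E2C call became 0 with at least 10 UMIs and 0 to 1 without single E2C embryos (fewer embryos tested), and E2C to L2C stayed at 0. The 5 later falls became 2 with at least 10 UMIs or oocytes only, 3 with run 3 only and 6 with zygotes only, and with ends judged by distance to an annotated end Nop56, Nop58 and Gnl3 were not called. No group of more than 5 embryos had single embryos left out. With stop-holding isoforms only, Ddx18 turned to 1.43 and Dkc1 to 0.77 from zygote to E2C. From E2C to L2C, with no call, Utp18 turned to 0.41 when thinned, and Npm1 to -0.29 (TMM), -0.19 (edgeR), -0.47 (DESeq2) and -0.16 (stop-holding). Utp20 turned to -0.27 (unweighted), -0.078 (no filter), -0.20 (TMM), -0.11 (edgeR), -0.43 (DESeq2), -0.066 (thinned), -0.82 (stop-holding), and ran from -0.13 to 0.12 without single E2C embryos. Shallow blastomeres limit levels near 1 UMI.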
